A study of Mus musculus with 12 samples.

Results

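The genes described here encode the cathepsins, the LAMP membrane glycoproteins and the proton pump of the lysosome. They were taken by symbol from the authors' count table: every row whose name begins with Cts followed by 1 letter, Lamp followed by a digit, or Atp6v or Atp6ap, with Ctsl and Ctsd left out. The rule found 46 rows among 24421, namely 16 cathepsins, 4 LAMPs, 25 pump genes and 1 pseudogene row (Atp6v0c-ps2). A filter on low counts left 30 of the 46 for testing. The study sequenced mRNA of the tibialis anterior, a hindlimb muscle, in 6 C57Bl/6 (WT) and 6 mdx/mTR samples, all from males aged 4 months, and each numbered sample is taken here as 1 mouse. The mdx allele disrupts Dmd, the dystrophin gene, and mTR is the mouse telomerase RNA gene; the labels give no generation or zygosity for mTR, and no agent was given to either group. The labels do not say that the samples of a group were prepared independently, so p-values measure the spread between these samples.

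Lysosomes are acidic compartments in which proteins delivered by endocytosis, phagocytosis and autophagy are cut up. Cathepsins are their main proteases, and most are cysteine enzymes that work best at acid pH. The acid is made by the vacuolar proton pump, in which a peripheral V1 sector hydrolyses ATP and turns a rotor that drives protons through the membrane-bound V0 sector. Muscle fibres hold few large lysosomes, whereas macrophages, which enter damaged muscle, are rich in them. LAMP glycoproteins line the inner face of the lysosomal membrane, and loss of LAMP2 causes a vacuolar myopathy in humans.

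Libraries held 35136327 to 60330410 counts, and levels below are CPM (a gene's counts as a rate of the library's total, corrected for composition by TMM scaling). A count of 3, the limit that a count of 0 allows, corresponded to 0.0460 to 0.0837 CPM and covers counting error only. Dmd fell from 228 to 244 CPM in WT to 35.2 to 56.4 CPM in mdx/mTR, and Terc had 2 counts in all, so the mTR allele could not be examined. All 8 muscle fibre markers were abundant in both groups, with Tnni2 lowest at 7974 ± 543 CPM in WT (SD, n = 6). Of 13937 genes tested with edgeR's quasi-likelihood test, 48.3% had a Benjamini-Hochberg adjusted p below 0.05, 25.0% higher and 23.4% lower in mdx/mTR, and this is the background for every count below. The groups of 6 did not overlap for 25.2% of genes, and for 12.6% they did not overlap with mdx/mTR higher.

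Among the 30 tested genes, 17 were higher in mdx/mTR, 3 were lower and 10 did not pass the threshold. The 17 include Atp6v0d2, which passed the filter only through mdx/mTR. Of 7 cathepsins known from myeloid cells, the 5 that could be tested all rose, by log2 fold changes of 0.41 to 3.01 with a median of 0.71. The 19 tested pump genes had a median of 0.16, with 9 higher, 3 lower and 7 not called (without Atp6v0d2, described below, 8 higher and a median of 0.15), and all but 1 lay between -0.43 and 0.55. The median over all genes tested was 0.01. The gene outside that range was Atp6v0d2, the pump subunit of osteoclasts and macrophages, at 5.03. At least 2-fold higher and past the threshold were Ctss, Ctsk and Ctsh, against 7.24% of all genes tested. Atp6v0d2 met both limits too, but its call was fixed once it passed the filter. With library totals in place of TMM the median of all genes moved up by 0.16, the share of calls that were higher went from 51.6% to 78.2%, and 13 pump genes were higher and 2 lower. Relative to the median of all genes, the pump median was 0.14 with TMM and 0.15 with library totals. No test of one list against the other was made, because the members were chosen with earlier results of these data known. The plot of fold changes shows each tested gene with its error.

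**Figure D1:**
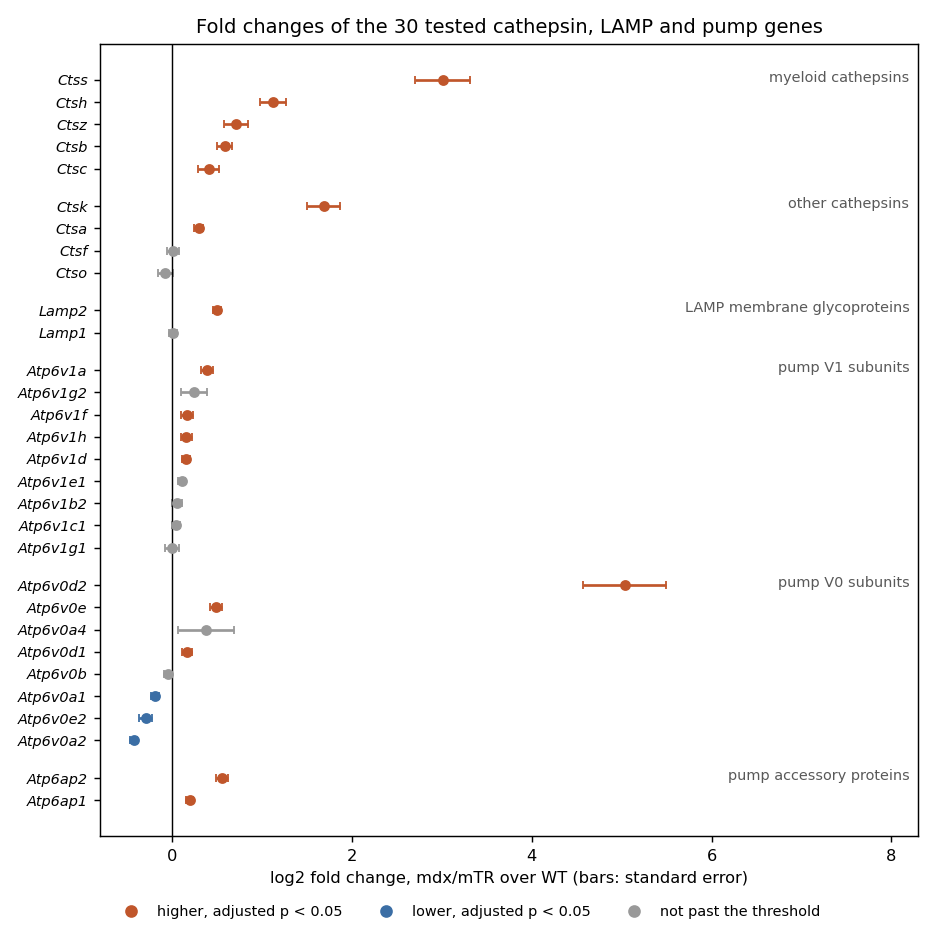
Difference between mdx/mTR and WT as log2 fold change (x axis) for the 30 tested genes by role (y axis), with the standard error from edgeR as bars. Orange marks the 17 genes past the threshold and higher, blue the 3 lower and grey the 10 not past it; Atp6v0d2 at 5.03 and Ctss at 3.01 stand to the right, and Atp6v0a2 at -0.43 is lowest.

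The cysteine protease Ctss (chr3:95526786-95556403, GRCm38, 8 exons) trims the invariant chain of MHC class II molecules in antigen-presenting cells and remains active at neutral pH. In WT its lowest, median and highest levels were 4.14, 6.29 and 9.16 CPM, and in mdx/mTR they were 27.1, 49.3 and 91.6 CPM. All 6 mdx/mTR mice lay above all WT mice, and mdx/mTR replicate 5 was highest while replicates 1 and 6 were lowest at 27.1 and 28.8 CPM. Ctss was 8.05-fold higher (log2 fold change 3.01 ± 0.31 SE, edgeR adjusted p 6.66e-06). Its share of the counts of the listed cathepsins, a sum without Ctsd and Ctsl, went from a median of 1.03% to 5.20%, while Ctsb held a median of 66.5% in WT and 66.7% in mdx/mTR. Per kilobase of transcript Ctss stood at 4.83 ± 1.40 CPM per kb in WT, the seventh of 9 tested cathepsins. In mdx/mTR it stood at 38.9 ± 18.4 CPM per kb, behind Ctsb at 132 ± 17.4 and within its own spread of Ctsz at 32.0 ± 8.49.

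Ctsh (chr9:90054152-90076089) encodes an aminopeptidase that trims peptides one residue at a time. Its levels were 8.31, 9.74 and 12.4 CPM (lowest, median, highest) in WT and 16.4, 21.9 and 29.3 CPM in mdx/mTR, without overlap. Ctsh was 2.17-fold higher (1.12 ± 0.15 SE, edgeR adjusted p 4.35e-05). The other myeloid cathepsins moved less. Ctsz (chr2:174427493-174439039), a carboxypeptidase, had levels of 27.2 to 29.9 CPM in WT and 33.5 to 66.7 CPM in mdx/mTR (0.71 ± 0.14, edgeR adjusted p 8.01e-04). Ctsb, which many cell types make and which was the most abundant of the listed cathepsins, went from 417 ± 32.1 to 625 ± 82.4 CPM (0.58 ± 0.09, adjusted p 1.06e-04). Of the Ctsb transcript, 16.32% of bases overlap exons of Fdft1 on the other strand, and no source used here says that strand was used in counting. Fdft1 itself was lower in mdx/mTR (log2 fold change -0.62), opposite to Ctsb.

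Ctsc, the dipeptidyl peptidase that activates serine proteases of immune granules, rose least of the 5 (0.41 ± 0.12, edgeR adjusted p 0.0103). Its level was 68.7 CPM in mdx/mTR replicate 5 and 41.3 to 45.2 CPM in the other mdx/mTR mice, against 31.3 to 40.8 CPM in WT. Without that mouse the log2 fold change was 0.27 (adjusted p 0.00288). The remaining myeloid cathepsins were too low to test: Ctse, an aspartic protease, had 38 counts in all 12 libraries, and Ctsg, the neutrophil granule protease, had 29. Of 7 neutrophil markers, 2 could be tested. S100a8 was higher (2.22 ± 0.79 SE, edgeR adjusted p 0.0312), with overlap and a highest level of 2.36 CPM in mdx/mTR, and S100a9 stood at 0.435 ± 0.123 and 0.874 ± 1.01 CPM and did not pass. The other 5, granule genes such as Mpo and Elane, averaged below 0.1 CPM in both groups.

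**Figure D2:**
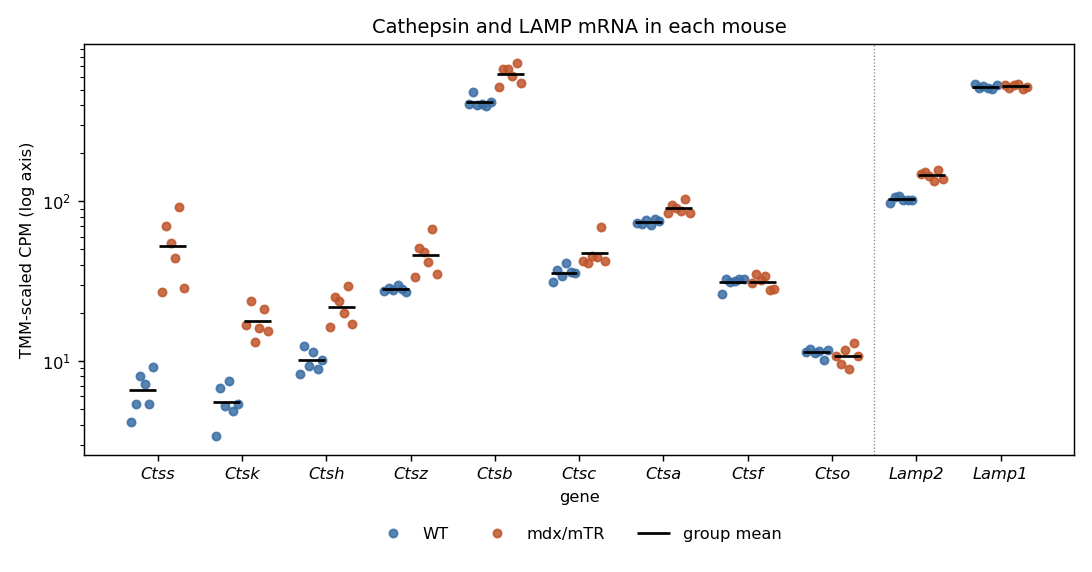
TMM-scaled CPM on a log axis (y) for the 9 tested cathepsins and the 2 tested LAMP genes (x). Each point is 1 mouse, blue for WT and orange for mdx/mTR, and the black line is the group mean; the groups separate for 7 cathepsins and for Lamp2, whereas Ctsf, Ctso and Lamp1 overlap.

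Markers of macrophages moved with these cathepsins. Of 14 macrophage marker genes, 12 were higher, 0 were lower, and Cd163 and Mertk did not pass; none of the 14 was at 0 in both groups. Their summed level was 81.9 to 138 CPM in WT and 187 to 496 CPM in mdx/mTR, with a median log2 fold change of 1.80. The mean of the 5 myeloid cathepsins and the mean of the 14 markers put the mdx/mTR mice in one order, from lowest to highest replicates 1, 6, 4, 3, 2 and 5. Fibroblast markers gave a close order (6, 4, 1, 3, 2 and 5), as did the pump mean with Atp6v0d2 (6, 1, 4, 3, 2 and 5), while the pump mean without it gave 6, 3, 4, 2, 1 and 5. These are descriptions over 6 libraries in which all means share scaling and depth, and the part of macrophage content in the cathepsin changes was not tested. In bulk tissue, fewer cells of a type and less RNA per cell cannot be told apart, nor can more cells and more RNA per cell.

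On the scale of log2(CPM + 0.5) minus the WT mean, the myeloid cathepsin mean of single mdx/mTR mice ran from 0.70 to 1.65. The pump mean ran from 0.15 to 0.27 in the same mice, above the WT range of -0.04 to 0.02. Much of this came from Atp6v0d2, which passed the filter only through mdx/mTR. Without it the mean of the other 18 pump genes ran from 0.07 to 0.12 in mdx/mTR and from -0.03 to 0.03 in WT. The plot of list means shows that the mdx/mTR mice spread widely in the cathepsins and little in the pump. The cathepsin mean includes Ctss, which rose most of its 5 genes (log2 fold change 3.01), and no mean without Ctss was taken. Muscle fibre markers ran from -0.44 to 0.05 and were lowest in replicates 5 and 2, the mice with the highest cathepsin means.

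**Figure D3:**
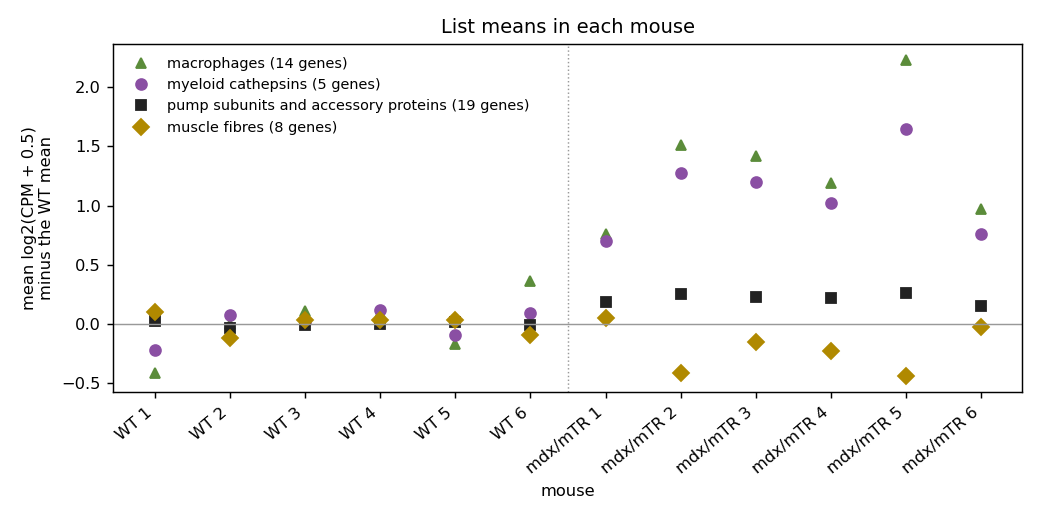
Mean of log2(CPM + 0.5) over the tested genes of a list, minus the mean of the 6 WT mice (y), for each mouse (x). Macrophage markers (green triangles) and myeloid cathepsins (purple circles) reach 2.23 and 1.65 in mdx/mTR replicate 5, pump genes with Atp6v0d2 included (black squares) stay between 0.15 and 0.27 in mdx/mTR, and muscle fibre markers (yellow diamonds) between -0.44 and 0.05.

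Among the other cathepsins, Ctsk and Ctsa rose, and Ctsf and Ctso did not pass. Ctsk (chr3:95499256-95509362) is a collagen-cutting protease known from osteoclasts and also made by fibroblasts, and it lies 17423 bases from Ctss. Its levels were 3.39, 5.30 and 7.46 CPM in WT and 13.1, 16.4 and 23.6 CPM in mdx/mTR (lowest, median, highest), without overlap. Ctsk was 3.21-fold higher (1.68 ± 0.18 SE, edgeR adjusted p 9.46e-06). Fibroblast markers were higher for 6 of 7 genes, with a summed level of 905 to 1628 CPM in WT and 2254 to 4460 CPM in mdx/mTR. Of 6 osteoclast markers, 4 were tested and 2 were higher, Acp5 (1.41 ± 0.29, edgeR adjusted p 0.00145, without overlap) and Itgb3 (0.42 ± 0.15, adjusted p 0.0346), while Calcr and Oscar did not pass. The osteoclast fusion genes Ocstamp and Dcstamp were too low to test, at 0.237 ± 0.115 and 0.108 ± 0.0639 CPM in WT and 0.186 ± 0.0824 and 0.0970 ± 0.0380 CPM in mdx/mTR. The part of fibroblasts or osteoclasts in the Ctsk change was not tested.

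Ctsa (chr2:164832873-164841032), a serine carboxypeptidase that also protects other lysosomal enzymes from breakdown, had levels of 71.5, 74.2 and 77.1 CPM in WT and 84.9, 89.3 and 103 CPM in mdx/mTR. It was 1.22-fold higher (0.29 ± 0.05 SE, edgeR adjusted p 4.26e-04), and the groups did not overlap. Exons of Pltp and Neurl2 on the other strand cover 21.7% of its transcript, and Pltp was itself higher (0.71). Ctsf stood at 31.1 ± 2.36 and 31.3 ± 2.97 CPM (0.01 ± 0.07) and Ctso at 11.3 ± 0.619 and 10.8 ± 1.47 CPM (-0.08 ± 0.09). With library totals alone the Ctso value was 0.0829. Ctsw, known from cytotoxic lymphocytes, was below the filter with 25 counts in WT and 130 in mdx/mTR, a ratio of 3.63 after scaling (95% counting interval 2.35 to 5.81). The 7 markers of T and NK lymphocytes were below the filter too, and 4 of them (Nkg7, Gzma, Klrb1c and Prf1) were higher in every mdx/mTR mouse than in any WT mouse. The background shares above cover tested genes only, so that count has no background. It also rests on few counts. Klrb1c had 0 to 4 counts in WT libraries and 6 to 36 in mdx/mTR libraries, and Nkg7 went from 0.0865 ± 0.0275 to 0.399 ± 0.245 CPM. The part of T and NK lymphocytes in the Ctsw values was not tested. The placental cathepsins Ctsj, Ctsm, Ctsq and Ctsr had 0 counts in every library.

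The LAMP genes parted. Lamp2 (chrX:38401357-38456454) had levels of 97.3, 102 and 107 CPM in WT and 133, 146 and 157 CPM in mdx/mTR, without overlap, and was 1.41-fold higher (0.50 ± 0.05 SE, edgeR adjusted p 3.91e-06). Lamp1 (chr8:13159161-13175338), the highest of the 30 tested genes per kilobase in WT at 234 ± 6.31 CPM per kb, had levels of 505, 519 and 541 CPM in WT and 503, 529 and 538 CPM in mdx/mTR. The Lamp1 groups overlapped throughout (0.01 ± 0.04, edgeR adjusted p 0.890), and with library totals alone the value was 0.16 (adjusted p 0.00377). Exons of Grtp1 on the other strand cover 11.17% of the Lamp1 transcript, and Grtp1 was lower in mdx/mTR (-1.15). Lamp3 and Lamp5, which mark dendritic cells and some neurons, had 4 counts and 1 count in all.

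In the V1 sector, which splits ATP, 4 of 9 tested genes were higher and 0 were lower; 13 were listed. The catalytic subunit Atp6v1a (chr16:44085402-44139705) changed most, from 31.1, 33.0 and 35.7 CPM in WT to 36.9, 43.6 and 49.0 CPM in mdx/mTR. It was 1.30-fold higher (0.38 ± 0.07 SE, edgeR adjusted p 3.87e-04), and the groups did not overlap. Atp6v1d (chr12:78840725-78861638), part of the central rotor, had levels of 61.6, 63.5 and 66.6 CPM in WT and 65.0, 71.0 and 75.2 CPM in mdx/mTR, with overlap (0.15 ± 0.04, edgeR adjusted p 0.0126). Atp6v1f (0.16 ± 0.06, adjusted p 0.0438) and Atp6v1h (0.16 ± 0.06, adjusted p 0.0348) also passed, and each lost the call when some single libraries were left out. Without WT replicate 2, for example, the edgeR adjusted p was 0.0774 for Atp6v1f and 0.0693 for Atp6v1h.

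The partner of Atp6v1a in the catalytic ring, Atp6v1b2, stood at 77.6 ± 6.29 and 80.3 ± 3.37 CPM and did not pass (0.05 ± 0.05). Atp6v1c1 (0.04), Atp6v1g1 (-0.00463) and Atp6v1g2 (0.24) did not pass either, and Atp6v1e1 was at an edgeR adjusted p of 0.0507. Atp6v1g1 shares 19.15% of its 50-base stretches with other annotated genes, and Atp6v1f 12.55%, so their levels are uncertain, since the handling of reads with several matches is not given. The kidney isoform Atp6v1b1 and the isoforms Atp6v1c2, Atp6v1e2 and Atp6v1g3 had 0 to 20 counts each over all libraries.

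In the V0 sector, which carries protons through the membrane, 9 genes were listed and 8 were tested. Of the 8, 3 were higher, 3 were lower and 2 did not pass. The 3 higher include Atp6v0d2, which passed the filter only through mdx/mTR, so its call was fixed. Without Atp6v0d2, only Atp6v0d1 and Atp6v0e were higher among 7 tested V0 genes. The largest subunit, a, lies on the proton path, and its isoforms direct pumps to different membranes. Atp6v0a2 (chr5:124628576-124724455), known from Golgi and endosomes, had levels of 68.6, 70.7 and 72.3 CPM in WT and 49.1, 53.5 and 54.5 CPM in mdx/mTR. Every mdx/mTR mouse lay below every WT mouse, and Atp6v0a2 fell by 0.43 on the log2 scale (SE 0.04, edgeR adjusted p 3.06e-06). Atp6v0a1 was lower too, from 111 ± 3.87 to 97.0 ± 4.10 CPM (-0.19 ± 0.04, adjusted p 0.00177). With library totals alone the Atp6v0a2 value was -0.27 (adjusted p 0.00125), but that of Atp6v0a1 was -0.0378 (adjusted p 0.392). Of the Atp6v0a2 transcript, 12.4% of bases overlap an annotated RNA on the other strand. The renal isoform Atp6v0a4 stayed at 0.352 ± 0.0927 and 0.464 ± 0.198 CPM and did not pass.

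Tcirg1 encodes the a3 isoform, found in pumps of osteoclasts and immune cells, and is no member by symbol. It was higher in mdx/mTR, from 9.79 ± 1.49 to 17.9 ± 6.01 CPM (0.87 ± 0.19, edgeR adjusted p 0.00220), without overlap. The a subunits were thus not changed in one direction.

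The subunit d joins the V0 ring to the rotor. Its general form Atp6v0d1 (chr8:105524465-105566047) rose slightly, from 34.2 ± 1.62 to 38.2 ± 3.15 CPM (0.16 ± 0.06, edgeR adjusted p 0.0306), with overlap, and lost the call without WT replicate 2 (adjusted p 0.0612), among other libraries. The alternative form Atp6v0d2 (chr4:19876841-19922605, 8 exons) is the one of osteoclasts and macrophages and had the largest fold change of the 30 genes. Its levels were 0.0278, 0.0802 and 0.137 CPM in WT and 1.15, 3.24 and 4.39 CPM in mdx/mTR, with replicates 1 and 6 lowest. WT libraries held 1 to 5 counts each, so Atp6v0d2 passed the filter only through mdx/mTR and had to differ once tested. The pooled counts were 19 in WT and 898 in mdx/mTR, a ratio of 33.0 after scaling (95% interval 21.0 to 55.0, counting error only). The edgeR log2 fold change of Atp6v0d2 was 5.03 ± 0.46 SE, and its p-value is left out because the outcome was fixed. The osteoclast and macrophage markers are given above, both those that were higher and those that did not pass or were too low to test. The part of these cells in the Atp6v0d2 change was not tested.

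The small membrane subunit e also has paired forms, and these moved in opposite directions. Atp6v0e (chr17:26663231-26699647) went from 11.1 to 12.2 CPM in WT to 14.2 to 18.1 CPM in mdx/mTR (0.48 ± 0.07, edgeR adjusted p 7.61e-05). Atp6v0e2 (chr6:48537615-48541801) went from 52.8 to 57.0 CPM to 36.0 to 50.6 CPM (-0.30 ± 0.07, adjusted p 0.00327). The Atp6v0e2 value was -0.15 with library totals alone (adjusted p 0.0399), and the groups did not overlap for either gene with TMM scaling. Of the proton-binding ring subunits, Atp6v0b did not pass (-0.05 ± 0.04), and with library totals alone its value was 0.11.

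The other ring subunit, Atp6v0c (chr17:24163866-24169702), had only 22 counts over all 12 libraries, at or under 0.139 CPM in each. It forms most of the ring of the pump, yet it was listed far below its partners. Its transcript shares 32.45% of 50-base stretches with 2 annotated pseudogenes, one of which is the row Atp6v0c-ps2 with 0 counts. How reads of this gene were assigned is not given in the sources used here, and no comparison was made from it.

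To compare isoforms without scaling between libraries, the share of an isoform in its subunit's counts was taken in each mouse. For subunits a, e and G it was tested with a two-sided exact permutation test, where the smallest p that 6 against 6 allow is 0.00216. The p-values were adjusted over 4 subunits, d included. The outcome for d was fixed by the filter, so the adjusted values of a and e are smaller than they would be without d. Means are given with their SD over 6 mice. Atp6v0d2 made up 0.248% ± 0.130 of d counts in WT, and its share was 6.88% ± 2.88 in mdx/mTR, given with no test because the gene passed the filter only through mdx/mTR. The share of Atp6v0e in e counts was 17.6% ± 0.747 in WT and 27.1% ± 4.28 in mdx/mTR (exact permutation p 0.00216, 0.00289 after adjustment). Atp6v0a2 made up 38.8% ± 0.791 of the counts of Atp6v0a1, Atp6v0a2 and Atp6v0a4 in WT and 35.0% ± 1.56 in mdx/mTR, again with that exact permutation p. Tcirg1, the a3 isoform, was not in this sum. For these 3 subunits the groups did not overlap. The neuronal form Atp6v1g2 made up 2.86% ± 0.322 and 3.37% ± 0.737 of G counts and did not pass (exact permutation p 0.156). For subunits B, C and E only 1 form was above 3 counts in 6 libraries.

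**Figure D4:**
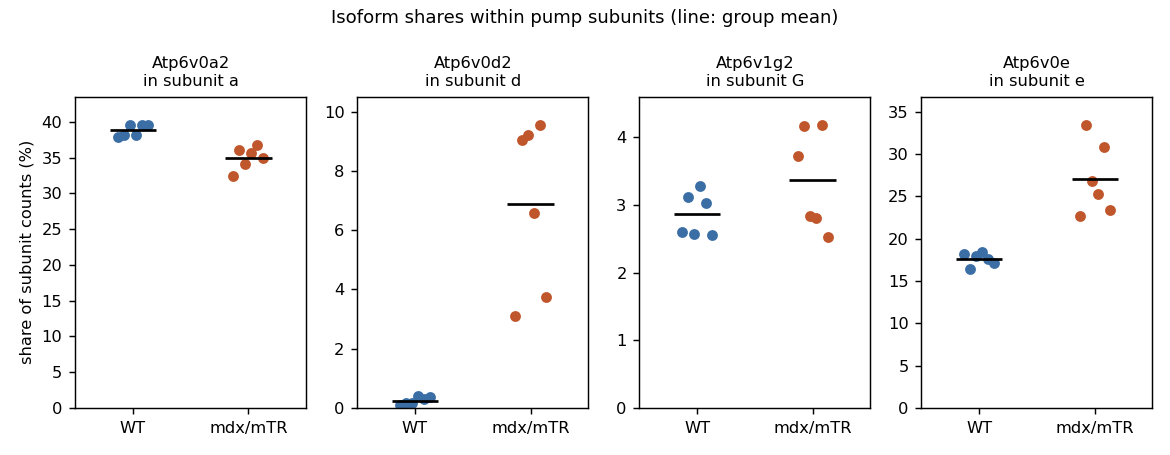
Share of an isoform in the counts of its pump subunit, in percent (y, from 0, with a scale for each panel), for WT and mdx/mTR (x); points are mice and the line is the group mean. Shares of Atp6v0d2 and Atp6v0e are higher in all mdx/mTR mice, that of Atp6v0a2 is lower in all, and that of Atp6v1g2 overlaps. For subunit a the counts are those of Atp6v0a1, Atp6v0a2 and Atp6v0a4, without Tcirg1.

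With TMM scaling, the summed levels of the sectors moved in opposite directions. Summed over all V1 rows, the level was 378 to 409 CPM in WT and 416 to 448 CPM in mdx/mTR, and summed over V0 rows it was 329 to 342 CPM and 299 to 304 CPM. The V0 fall depends on that scaling, since library totals alone moved the median of all genes up by 0.16. Without TMM the V0 sums of the groups overlap. The ratio of V1 to V0 counts within a library, on which scaling has no bearing, was 1.14 to 1.23 in WT and 1.38 to 1.48 in mdx/mTR, without overlap. This ratio is given as a description with no test, and Atp6v0c adds almost nothing to the V0 sum. The V0 sum is made up largely of Atp6v0a1, Atp6v0a2 and Atp6v0e2, the genes that fell. In a mean that weights genes equally, V0 stood at 0.14 to 0.39 in mdx/mTR relative to WT. That rise rests on Atp6v0d2, whose outcome was fixed by the filter. Without Atp6v0d2 the V0 mean was -0.09 to 0.03 in mdx/mTR and -0.03 to 0.03 in WT. The groups overlapped there, with mdx/mTR replicates 1, 4 and 6 below all WT mice. The V1 mean was 0.07 to 0.19 in mdx/mTR and -0.06 to 0.05 in WT.

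Both tested accessory proteins rose. Atp6ap2 (chrX:12587801-12617049), the prorenin receptor, which aids assembly of the pump, had levels of 15.7, 17.4 and 19.4 CPM in WT and 22.7, 25.7 and 29.1 CPM in mdx/mTR. It was 1.47-fold higher (0.55 ± 0.07 SE, edgeR adjusted p 2.57e-05). Atp6ap1 (chrX:74297097-74304721), the Ac45 subunit, had levels of 138, 139 and 144 CPM in WT and 151, 160 and 169 CPM in mdx/mTR (0.19 ± 0.04, edgeR adjusted p 0.00126). The groups did not overlap for either gene. Atp6ap1l had 14 counts in all.

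Levels per kilobase differed widely between subunits that sit in one complex. In WT the highest of the tested pump genes were Atp6v1e1 at 71.9 ± 2.41 CPM per kb, Atp6ap1 at 64.1 ± 1.32, Atp6v0b at 51.7 ± 1.97 and Atp6v1g1 at 50.4 ± 5.58, of which the last 2 differed by less than their spread. The catalytic Atp6v1a stood at 7.86 ± 0.423 CPM per kb and its ring partner Atp6v1b2 at 27.5 ± 2.23. In mdx/mTR, Atp6v0d2 reached 1.15 ± 0.552 CPM per kb, against 23.5 ± 1.93 for Atp6v0d1. These levels divide by the longest annotated coding transcript, which need not be the one muscle uses.

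**Figure D5:**
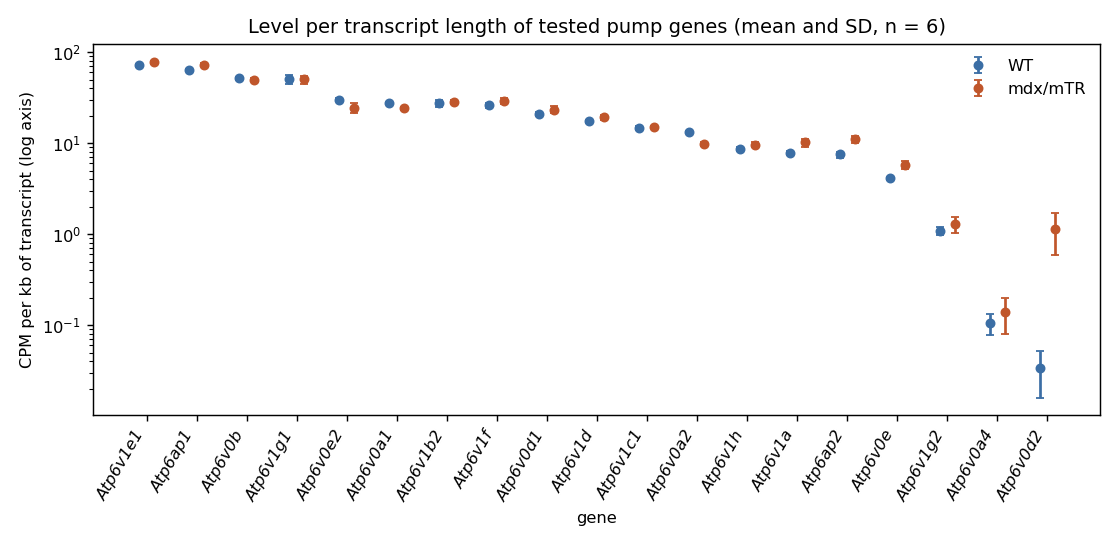
CPM per kilobase of the longest coding transcript on a log axis (y) for the 19 tested pump genes (x), as mean and SD of 6 mice, WT in blue and mdx/mTR in orange. Atp6v1e1 is highest at 71.9 in WT, and Atp6v0d2 moves from 0.0337 in WT to 1.15 in mdx/mTR.

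Many lysosomal genes carry the CLEAR element, bound by TFEB and TFE3, around an E-box (CACGTG). The table of RefSeq promoters (GRCm38.p6, 250 bases before the start site to 50 after) held 24 windows for 22 of the 30 tested genes; Atp6v1h, Atp6v1c1, Atp6v1g1, Atp6v1b2, Atp6v0a2, Atp6v0d2, Ctsb and Ctsh are not among them. The E-box occurred in 7 of the 24 windows (29.2%), against 9.69% of windows of tested genes and 7.15% of all windows, reading both strands. Its 8-base extension TCACGTGA occurred in 4 (16.7%) against 1.74% of windows of tested genes and 0.974% of all, and the whole CLEAR element in 0, against 0.653% of windows of tested genes and 0.326% of all. These motifs are nested, so their counts are not separate. The windows below hold 4, 2, 2 and 1 E-boxes, in capitals, and are shown because their genes did and did not change.
Lamp1 (chr8:13159060-13159159, plus strand): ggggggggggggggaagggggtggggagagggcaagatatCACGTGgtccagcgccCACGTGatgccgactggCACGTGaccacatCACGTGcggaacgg
Atp6v0b (chr4:117887334-117887405, minus strand): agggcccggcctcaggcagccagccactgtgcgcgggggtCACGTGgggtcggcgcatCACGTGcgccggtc
Ctsa (chr2:164833721-164833791, plus strand): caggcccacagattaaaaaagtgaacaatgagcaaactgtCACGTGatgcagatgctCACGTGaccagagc
Atp6v1a (chr16:44139377-44139430, minus strand): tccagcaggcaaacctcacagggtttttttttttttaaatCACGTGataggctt

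Lamp1, with 4 E-boxes, and Atp6v0b, with 2, did not pass the threshold. Ctsa, with 2 E-boxes in 1 of its 2 windows and none in the other, and Atp6v1a, with 1, were higher. Atp6v0d1 and Atp6v0e, with 1 each, were higher, and Ctsf, with 1, did not pass. The 4 windows with TCACGTGA were those of Ctsa, Atp6v1a, Atp6v0d1 and Atp6v0e, while Lamp1, Atp6v0b and Ctsf had the E-box without that extension. Other genes that were higher, such as Lamp2 and Atp6ap2, had a window without an E-box. A link between these motifs and the changes was not tested. A match is a description of the letters and not a bound site. Of the factors, Tfeb was lower (-0.36 ± 0.06, edgeR adjusted p 4.71e-04) and Tfe3 higher (0.23 ± 0.07, adjusted p 0.0158). Mitf, listed with them for this report, was lower (-0.25 ± 0.06, edgeR adjusted p 0.00359), and Tfec was below the filter.

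A motif of the myeloid factor PU.1, GAGGAAGT read on both strands, occurred in 2 of the 24 windows (8.33%), those of Ctss and Ctsc, against 2.98% of windows of tested genes and 3.20% of all. The Ctss match, in capitals and on the opposite strand, spans the start site. Ctsc, the other gene with a match, rose least of the 5 tested myeloid cathepsins (log2 fold change 0.41), and Ctsb and Ctsh have no window. A link between this motif and the changes was not tested.
Ctss (chr3:95526744-95526799, plus strand): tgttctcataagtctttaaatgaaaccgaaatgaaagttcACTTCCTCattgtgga

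Other lysosomal genes, from lists written for this report, gave the following counts. Cathepsin inhibitors were higher for 4 of 5 tested genes and lower for 1, led by the serpins Serpinb6a (1.38 ± 0.10 SE) and Serpinb1a (2.79 ± 0.29). These serpins are known as inhibitors of serine proteases such as Ctsg, which was too low to test. Of the cystatins, which inhibit cysteine cathepsins, Cstb (1.05 ± 0.17) and Cst3 (0.29 ± 0.08) were higher and Cst6 was lower (-0.42 ± 0.10). Lysosomal proteases outside the cathepsins, together with Pla2g15, a phospholipase, were higher for 5 of 7, with Lgmn, the asparaginyl endopeptidase, at 34.9 ± 5.93 and 100.4 ± 25.8 CPM (1.52 ± 0.16) and Pla2g15 at 0.63 ± 0.13. Acid glycosidases and lipid hydrolases were higher for 16 of 26 and lower for 2. The smallest p-values there were those of Ppt1 (0.60 ± 0.09) and Gaa, the acid glucosidase that breaks down glycogen, which was lower (-0.45 ± 0.07). Thus most hydrolases that passed were higher, in both the protease and the glycosidase lists.

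Membrane proteins of the lysosome, listed together with Npc2, a soluble protein, were higher for 9 of 16 and lower for 3. Npc2 was among the 9. Laptm4b (-0.52 ± 0.05) and Ostm1 (-0.60 ± 0.06), both lower, had the smallest p-values. Pump assembly and regulation had 3 of 10 higher and 2 lower, with Rogdi (0.55 ± 0.09) and Ncoa7 (0.55 ± 0.10) first. That list also held Tcirg1, a gene of the pump itself, which was among the 3 higher. Lysosomal transcription and mTORC1 docking had 4 of 13 higher and 4 lower, with Rragd (-0.59 ± 0.08) and Tfeb first. Sorting of lysosomal enzymes had 3 of 11 higher and 3 lower, with Gga2 (0.64 ± 0.08) and Gga1 (-0.28 ± 0.05) first. In the last 3 lists the share higher lay at 27.3% to 30.8%, near the background of 25.0%.

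The authors' deposited table gives an adjusted p for 31 of the 46 genes, with 17 higher and 3 lower below 0.05. In the authors' deposited table and in edgeR, 19 genes were called in the same direction. The authors' deposited table differs in calling Ctsw higher (log2 fold change 1.30) and not Atp6v1f (adjusted p 0.0622).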

How the data were processed

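The authors deposited raw counts per gene symbol for 12 tibialis anterior libraries and a table of their own comparison. Per the file headers, that table gives a mean signal over samples, a log2 fold change and its standard error, a score from the test, and raw and adjusted p-values. The submitters' processing notes name FastQC, STAR, DESeq2 and mm10. The counter, annotation and strand handling are not given in the sources used here.

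The members, gene lists and tests were chosen with earlier results of these data known. Counts were tested with edgeR 4.0.16 (filterByExpr, TMM, quasi-likelihood test, Benjamini-Hochberg adjustment, threshold 0.05) on 13937 of 24421 rows, which hold 99.97% of counts. Standard errors are the log2 fold change divided by the root of F. No 2 libraries agreed within counting noise. Values by mouse are given for called genes at or above a log2 fold change of 1 in size and for the 2 smallest p-values of each role; other lists name their 2 smallest. Isoform shares used scipy 1.17.1. Overlap, length and 50-base sharing came from GENCODE M21 (GRCm38), promoters from RefSeq. Alternatives were no filter, 1 CPM in 6 libraries, 3 other scalings, DESeq2 1.42.0, limma 3.58.1 (voom), a replicate block, an adjusted p of 0.01, other list members and each library left out. The fit was tested on simulated data.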

Additional observations from a re-analysis of the deposited data

Results flagged for a closer look

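In 4 of 68 groups of 6 mice, 1 mouse stood apart from the rest by Dixon's criterion, and chance at 1 in 20 gives 3.4. Ctsb stood at 481 CPM in WT replicate 2, against 395 to 416 CPM in the other WT mice. Ctsf stood at 26.4 CPM in WT replicate 1, against 31.4 to 32.6 CPM in the others. Atp6v0b stood at 55.5 CPM in WT replicate 5 and at no more than 51.6 CPM in the others. Ctsc stood at 68.7 CPM in mdx/mTR replicate 5, while the rest of that group lay at 41.3 to 45.2 CPM.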

How the results depend on the processing

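Of the 20 called genes, 16 kept their call and direction under all 20 alternatives run per gene, and 0 reversed. The others were Atp6v1h, Atp6v1f, Atp6v0d1 and Atp6v0a1. The 16 include Atp6v0d2, whose call was fixed once it passed the filter. The pump genes higher, Atp6v0d2 among them each time, numbered 5 at an adjusted p of 0.01. They numbered 6 to 9 with single libraries left out (6 without WT replicate 2). The pump median was 0.20 with upper quartile scaling, 0.32 with library totals, and 0.14 to 0.16 with single libraries left out. Values without a call that changed sign were Ctso (0.0829) and Atp6v0b (0.11) with library totals, and Atp6v1g1 with a 1 CPM filter (0.00896), upper quartile scaling (0.0358) and library totals (0.15). With single libraries left out Ctsf ran from -0.0372 to 0.0374, Atp6v1g1 from -0.0360 to 0.0539 and Lamp1 from -0.00215 to 0.0178. Deviations of same-numbered samples correlated at 0.33 and 0.27 for numbers 1 and 2 and at -0.14 to -0.02 for the other 4, so the numbers were not taken as pairs. With a replicate block 14 genes were higher and 3 lower, all 5 myeloid cathepsins and 6 pump genes were higher, and the medians were 0.67 and 0.16. The 16 genes below the filter had 0 to 155 counts in all and were not compared by edgeR. Leaving out Atp6v0d2 from the pump genes was added after seeing the data.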
